A study of Mus musculus with 37 samples.

Results

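Lymph nodes of the upper abdomen (the duodenal, liver and celiac nodes) were compared with the iliac node, which lies in the pelvis. The 12 libraries were chosen by their labelled node, 3 libraries for each of the 4 nodes, out of 37 libraries in the series: 9 upper-abdominal and 3 iliac. None of the 12 held more than 917912 counts. Every one came from mice labelled CD169 Cre KI/KI, Rpl22HA homozygous, from lymph node tissue, with cd169 macrophages given as the cell type. No group differed from another by genotype or treatment in the labels, and age and sex are not given in the sources used here. The labels do not say whether the replicates were separate animals, so the p-values measure only the spread between these libraries, which may be technical.

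RiboTag mice carry an Rpl22 allele that gains an HA tag once Cre has acted on it, so that anti-HA beads can recover the ribosomes of Cre-expressing cells together with the mRNA being translated. Here Cre was knocked into the gene for CD169 (Siglec1), a sialic acid receptor of the macrophages of the subcapsular and medullary sinuses, which sample incoming lymph. RNA that sticks to the beads without a tagged ribosome is also recovered in such a pull-down, and an isotype control antibody measures it.

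The 9 upper-abdominal libraries had a median of 349238 counts and a maximum of 917912, and the 3 iliac libraries held 347806 to 882534, so totals overlapped (exact permutation test over the 220 ways to pick 3 of 12 libraries, two-sided p = 0.141). Their share of ribosomal sequence did not overlap. Features with ribosomal RNA sequence (Gm19220, Rn18s-rs5, Lars2) took 74.3% to 85.6% of the upper-abdominal counts and 39.0% to 59.2% of the iliac counts (exact permutation p = 0.00455, the smallest that 220 splits can give, adjusted p = 0.0121 over 4 measures). Outside these 3 features, 42620 to 164560 counts were left in the upper-abdominal libraries against 141995 to 420870 in iliac (exact permutation p = 0.00909, adjusted p = 0.0121). Between 692 and 2075 genes reached 10 counts in the upper-abdominal libraries, and 1708 to 2971 in iliac (exact permutation p = 0.00909, adjusted p = 0.0121). Celiac replicate 3 was the upper-abdominal library that passed iliac replicate 1 on both of these measures. After scaling by TMM, which sets the bulk of genes equal between libraries, 3 counts corresponded to 7.46 to 16.1 CPM (counts per 1000000 of the scaled total) in the upper-abdominal libraries and 2.07 to 4.87 CPM in iliac, so a low gene was harder to see in the former. Less RNA per cell and fewer cells of a type cannot be told apart in such bulk libraries.

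**Figure D1:**
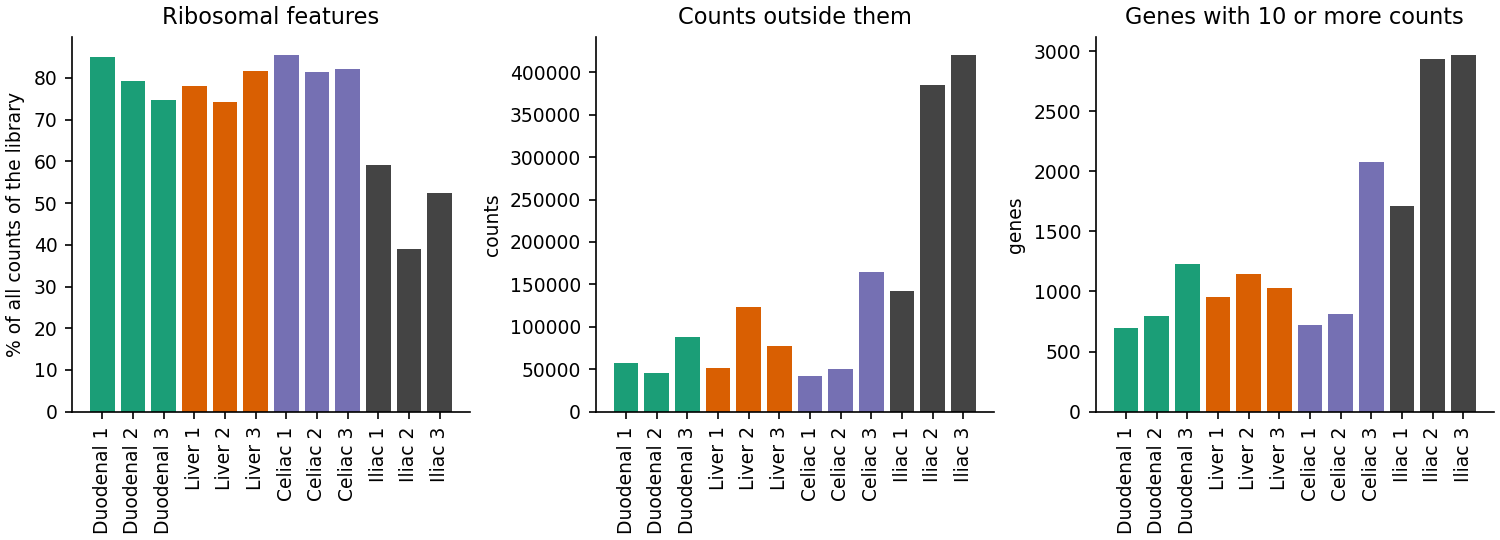
Bars give, for each of the 12 libraries, the percent of counts in the 3 ribosomal features, the counts outside them, and the number of genes with 10 or more counts; colours mark the node. Each of the 3 iliac libraries had a lower ribosomal share, 39.0% to 59.2%, than any of the 9 upper-abdominal libraries.

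The labelled cell type was checked against its markers. Siglec1, the gene whose locus drives the Cre, had 0 counts in all 9 upper-abdominal libraries and 0, 0 and 3 in iliac, and whether the knock-in leaves that transcript intact is not given in the sources used here. Adgre1, which encodes the macrophage surface protein F4/80, was at 0 in all 9 and at 3, 0 and 0 in iliac. Cd68, a lysosomal protein of macrophages, reached at most 2 counts in any of the 12. Csf1r, the receptor for the growth factor that macrophages need, had 0 to 15 counts in the upper-abdominal libraries and 8 to 18 in iliac. Marco, a scavenger receptor of sinus macrophages, was the only one of these markers deep enough to test, with 3, 35 and 13 counts in duodenal, 20, 27 and 22 in liver, 10, 24 and 57 in celiac and 52, 482 and 76 in iliac. Its log2 fold change was -1.09 ± 0.62 (SE, adjusted p = 0.208, edgeR's quasi-likelihood test), 0.17 without iliac replicate 2 (adjusted p = 0.919) and -2.44 with plain library totals in place of scaled ones (adjusted p = 0.00688), where it was called. The 13 sinus macrophage markers together had 8 to 140 counts in an upper-abdominal library and 81 to 553 in an iliac one. Marco alone gave 52, 482 and 76 of the iliac counts. C1qa, a complement gene among the 13 that was also tested, was not called (0.63 ± 0.61, adjusted p = 0.478). At this depth the macrophage label could not be checked in the upper-abdominal libraries, and in iliac Siglec1, Adgre1 and Cd68 had at most 3 counts as well. Markers of the organs beside these nodes were low in most libraries. The 5 markers of intestinal epithelium summed to a median of 1 count and a maximum of 37 in the upper-abdominal libraries and to at most 6 in iliac, the 8 of acinar pancreas to at most 14 against 3, and the 7 of hepatocytes to at most 14 against 3. The longer lists of these cell types reached 86, 38 and 40 counts in an upper-abdominal library, against at most 10, 12 and 28 in iliac. Their part in the results was not tested.

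Of 56351 genes, 1622 had enough counts to test. The filter asked for enough counts in 3 libraries, so a gene could pass through the 3 iliac libraries alone. Against iliac, the mean of the 3 upper-abdominal nodes was lower for 276 genes (17% of those tested) and higher for 134 (8.26%) at an adjusted p under 0.05. The duodenal node taken alone was lower for 140 genes (8.63%) and higher for 57 (3.51%). Liver was lower for 61 (3.76%) and higher for 16 (0.986%), and celiac was lower for 161 (9.93%) and higher for 126 (7.77%). The same gene was called lower in each of the 3 nodes 52 times (3.21% of those tested) and higher in each 14 times (0.863%), and these 66 were all called in the mean contrast too. The 3 site contrasts share the iliac libraries, so that their calls are not independent. All 276 lower and all 134 higher genes had the same sign in the 3 nodes. The mean contrast averages the 3 site contrasts, so genes called in it mostly share a sign, and this is no separate support. In CPM the 9 upper-abdominal libraries lay entirely below the 3 iliac ones for 168 genes (10.4% of those tested) and entirely above for 101 (6.23%). With 10 counts required in at least 6 of the 12 libraries, 945 genes were tested, and 221 were lower and 69 higher. Of the 52, 41 were then tested and all 41 were still lower in each node. Of the 14, 12 were tested and 6 were still higher in each.

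How many genes hold in each node rested on single libraries. Without liver replicate 1, 2 or 3, the 66 genes fell to 1, 2 and 1, as the liver contrast alone fell from 77 genes to 1, 2 and 1. Without iliac replicate 2 the count was 3 and without iliac replicate 3 it was 23, while without iliac replicate 1 it rose to 118. Without duodenal replicate 1 or 2 it was 39 and 42, and without celiac replicate 2 it was 29. The mean contrast fell from 410 genes to 171 without iliac replicate 2 and to 228 without iliac replicate 3, and ranged from 357 to 443 without any other single library. Ptms, a small acidic nuclear protein, was the gene still lower in each node whichever liver library was left out, and Ptms, Hmgb1 and Hsp90aa1 were the 3 still lower in each node without iliac replicate 2. All 52 lower genes kept a negative sign and all 14 higher genes a positive sign under each of these removals. These genes were chosen from the same libraries, with changes no nearer 0 than -2.16 and 1.79, so the kept signs are no separate support.

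The test of any difference among the duodenal, liver and celiac nodes called 0 of 1622 genes (0%). In edgeR 156 genes had an unadjusted p under 0.05 and the smallest adjusted p was 0.0515. DESeq2 called 12 genes and limma voom called 0. The list members with the smallest p in this test were C3, the central complement component, and Lpl, and neither passed. C3 had a log2 fold change against iliac of -1.02 in duodenal, -0.95 in liver and 1.84 in celiac (unadjusted p = 0.000237, adjusted p = 0.128 for the difference among the nodes), and was called in celiac alone. Lpl, the lipase that frees fatty acids from circulating lipoproteins, had 8, 8 and 11 counts in duodenal, 33, 24 and 117 in liver, 9, 9 and 18 in celiac and 309, 1416 and 1036 in iliac. Its log2 fold change was -4.47 ± 0.66 in duodenal, -2.04 ± 0.58 in liver and -4.10 ± 0.64 in celiac (unadjusted p = 0.00148, adjusted p = 0.267 for the difference). Against iliac it was called in the mean contrast (-3.54 ± 0.42, adjusted p = 0.000156) but not in liver (adjusted p = 0.0562).

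Among the lower genes, the 52 that held in each node had a median log2 fold change of -3.08, against 0.21 over all tested genes, and 51 of them did not overlap between the 9 upper-abdominal and 3 iliac libraries. Of all 1622 tested genes, 168 (10.4%) lay entirely below iliac. The 52 were called from the same libraries, so their lack of overlap is no separate support. Medians of the 52 by node were -3.11 in duodenal, -2.77 in liver and -3.28 in celiac. Gm5844, with 178 counts over the iliac libraries and 0 in all 9 others, has no fold of its own; with it set at its bound, the median stayed at -3.08. The 12 genes named here had the largest change among the 46 that reached 10 counts in each iliac library and are not predicted genes or pseudogenes.

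Hmgb1, an abundant chromatin protein that also acts as an alarm signal outside the cell, had 12, 30 and 23 counts in duodenal, 52, 42 and 39 in liver, 17, 11 and 89 in celiac and 1233, 8005 and 4196 in iliac. Each iliac library was far above the highest upper-abdominal library, celiac replicate 3. Scaled, this was 118 ± 61.6 CPM (SD, n = 9) against 3721 ± 2251 (n = 3), a log2 fold change of -5.01 ± 0.47 (SE, edgeR adjusted p = 2.6e-05), with -5.45 ± 0.76 in duodenal, -4.66 ± 0.73 in liver and -4.92 ± 0.74 in celiac. Ptms (parathymosin) had 14, 15 and 33 counts in duodenal, 19, 19 and 32 in liver, 6, 7 and 35 in celiac and 1663, 2907 and 1662 in iliac. No upper-abdominal library had more than 35 counts of Ptms, and the log2 fold change was -4.93 ± 0.38 (adjusted p = 3.2e-06). Hsp90aa1, the stress-inducible form of the cytosolic chaperone Hsp90, had 60, 146 and 146 counts in duodenal, 170, 168 and 158 in liver, 45, 60 and 203 in celiac and 3502, 20638 and 7913 in iliac. Its groups did not overlap either, with a log2 fold change of -4.38 ± 0.46 (adjusted p = 4.9e-05).

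Anp32b, an acidic nuclear protein that binds histones, had 29 to 239 counts in the upper-abdominal libraries and 2539 to 10311 in iliac (-3.92 ± 0.41, adjusted p = 4.9e-05). Cbx3, a heterochromatin protein that reads methylated histone H3, had 1 to 33 counts against 55 to 1184 (-4.23 ± 0.66, adjusted p = 0.000611). Iliac replicate 2 was the highest for both. Pelp1, a coregulator of nuclear receptors, had 2 to 29 counts against 218 to 976 (-3.91 ± 0.47), and Crebbp, a histone acetyltransferase, had 1 to 26 against 58 to 661 (-3.48 ± 0.52). For Crebbp the duodenal value of -5.23 ± 0.88 was farther from 0 than liver's -2.86 ± 0.73 and celiac's -2.35 ± 0.71, but the difference among the nodes did not pass the adjusted threshold (unadjusted p = 0.0167). Dhx15 and Slu7, both of which act in splicing, were lower, with log2 fold changes of -3.90 ± 0.54 and -3.56 ± 0.51. They had 1 to 23 and 1 to 15 counts in the upper-abdominal libraries, against 110 to 1002 and 73 to 617 in iliac. Eif3c, a subunit of the translation initiation factor eIF3, had 3 to 17 counts against 118 to 688 (-3.93 ± 0.49). Mindy2, a deubiquitinase, had 0 to 4 against 51 to 159 (-3.88 ± 0.62). Tbca, a tubulin folding cofactor, had 1 to 14 against 73 to 657 (-3.35 ± 0.62). With so few upper-abdominal counts, the size of these folds is uncertain. Of the 12, Tbca alone lost its call in the mean contrast without iliac replicate 2 (-2.11, adjusted p = 0.0503). Counts of Hmgb1, Ptms, Cbx3 and Tbca are uncertain where near-identical processed copies share reads, and those of Hmgb1, Ptms and Mindy2 also because the annotation has a gene on the other strand that overlaps each of them.

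**Figure D2:**
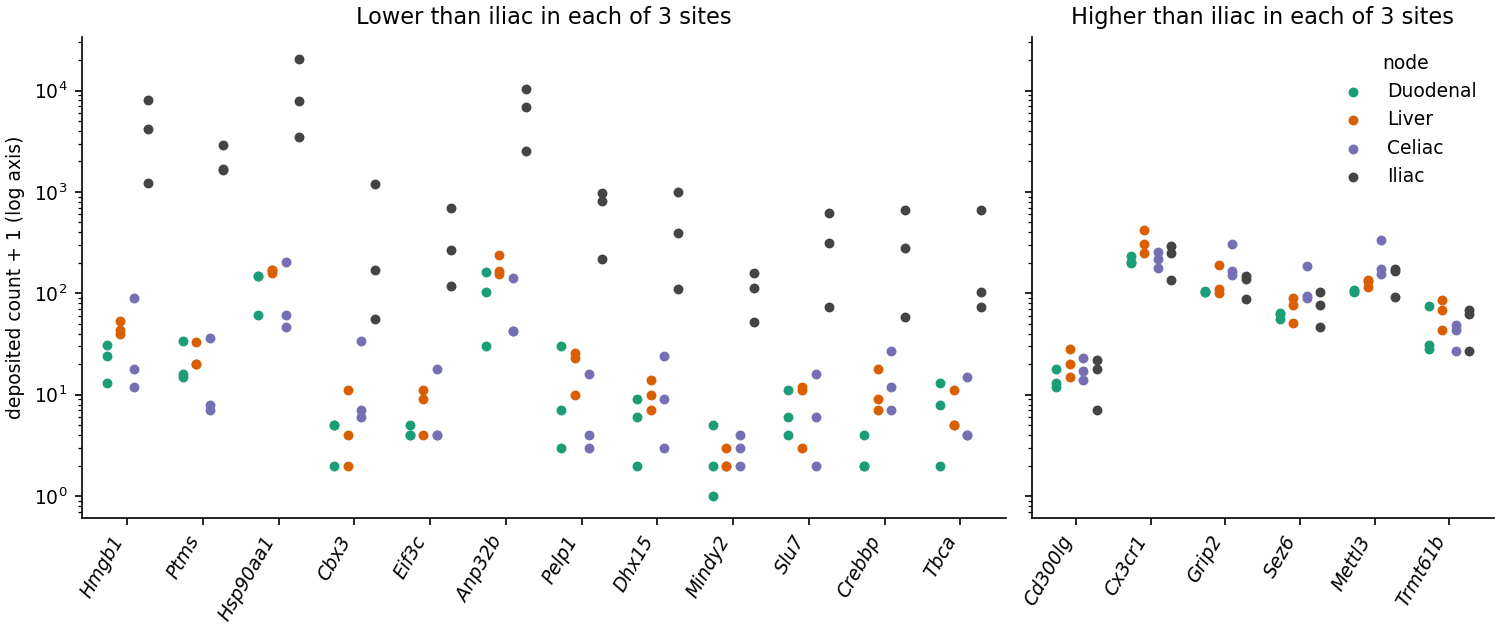
Points are deposited counts plus 1 on a log axis for each of the 12 libraries, coloured by node, for the 12 genes lower in each node (left) and the 6 higher in each node (right). For the genes on the left all 3 iliac libraries lie above all 9 others, while on the right the range of the 9 upper-abdominal libraries overlaps that of the 3 iliac ones.

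Sequence was examined for what the lower genes share. Of the 1622 tested genes, 1578 matched the GENCODE M21 annotation of GRCm38 and 1194 of those were protein-coding with a coding sequence. In each coding sequence the window of 60 bases with the most purines (A or G) was found. It is printed here for the 6 named lower genes with the largest change and, for contrast, the 3 named higher genes with the largest change. Capitals mark runs of 8 or more purines.
Hmgb1: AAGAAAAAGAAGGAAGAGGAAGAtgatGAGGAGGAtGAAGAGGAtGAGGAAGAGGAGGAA
Ptms: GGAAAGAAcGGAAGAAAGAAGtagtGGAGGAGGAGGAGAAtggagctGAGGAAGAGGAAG
Hsp90aa1: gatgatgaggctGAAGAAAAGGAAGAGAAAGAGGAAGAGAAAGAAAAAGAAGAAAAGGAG
Cbx3: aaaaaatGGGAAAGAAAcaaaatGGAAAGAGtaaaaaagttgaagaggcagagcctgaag
Eif3c: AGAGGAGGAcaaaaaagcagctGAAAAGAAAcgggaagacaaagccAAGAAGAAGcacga
Anp32b: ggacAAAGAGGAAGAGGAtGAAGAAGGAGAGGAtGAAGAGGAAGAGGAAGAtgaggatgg
Cd300lg: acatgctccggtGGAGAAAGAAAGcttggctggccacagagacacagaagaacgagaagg
Cx3cr1: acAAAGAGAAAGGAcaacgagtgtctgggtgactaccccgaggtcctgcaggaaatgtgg
Grip2: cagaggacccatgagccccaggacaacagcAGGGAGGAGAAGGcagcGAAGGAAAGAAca

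The Hmgb1 window (chr5:149048782-149048841, minus strand, exon 5) holds 56 purines and that of Hsp90aa1 (chr12:110694254-110694313, minus strand, exon 5) also 56. In Cbx3 (chr6:51475232-51475291, plus strand, exon 3) and in Eif3c (chr7:126558941-126559000, minus strand, exon 9) it holds 50. The windows of Ptms (chr6:124914683-124914946, minus strand, 54 purines) and Anp32b (chr4:46468765-46469919, plus strand, 55 purines) each cross an exon junction, so that their span includes an intron. The other 6 named lower genes hold 50 to 57. Among the higher genes, the Cd300lg window (chr11:102048779-102050513, plus strand) also crosses a junction and holds 42 purines. That of Cx3cr1 (chr9:120051771-120051830, minus strand, exon 2) holds 39 and that of Grip2 (chr6:91782327-91782386, minus strand, exon 11) 45.

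Over the lists the median was 53 purines for the 47 coding genes lower in each node and 52 for the 247 lower in the mean contrast, against 46 for the 1194 coding genes tested and 43.5 for the 70 higher in the mean contrast. A window with at least 50 purines was present in 43 of the 47 (91.5%), in 170 of the 247 (68.8%), in 358 of the 1194 (29.98%) and in 4 of the 70 (5.71%). The hexamer GAAGAA, counted on the coding strand without overlap, had a median of 3.29 per kilobase in the genes lower in each node, 2.75 in all lower genes, 1.46 in all tested and 0.91 in the higher ones, and it was in 79.9% of all coding sequences tested. Its reverse complement TTCTTC, the same hexamer on the other strand, had a median of 0.22 per kilobase in the genes lower in each node, 0 in all lower genes, 0 in all tested and 0.424 in the higher ones, and was in 49.3% of the coding sequences. Median GC content was 46.4% in the genes lower in each node, 48.8% in all lower genes, 50.2% in all tested, 53.2% in all higher genes and 56.1% in the 6 coding genes higher in each node. Median coding length was 1914, 1863, 1589, 1454 and 1539 bases in the same order. Lower coding genes also had more counts in iliac, a median of 195 over the 247 against 38.8 over the 1194 coding genes tested. Among genes with a mean of 100 or more iliac counts, 136 of the 187 lower coding genes (72.7%) had a window with at least 50 purines, as did 42 of the 108 not called (38.9%) and 0 of the 7 higher. Purines and GAAGAA were chosen after the values had been seen, among 7 features first examined over whole transcripts, so these numbers are a description with no test.

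**Figure D3:**
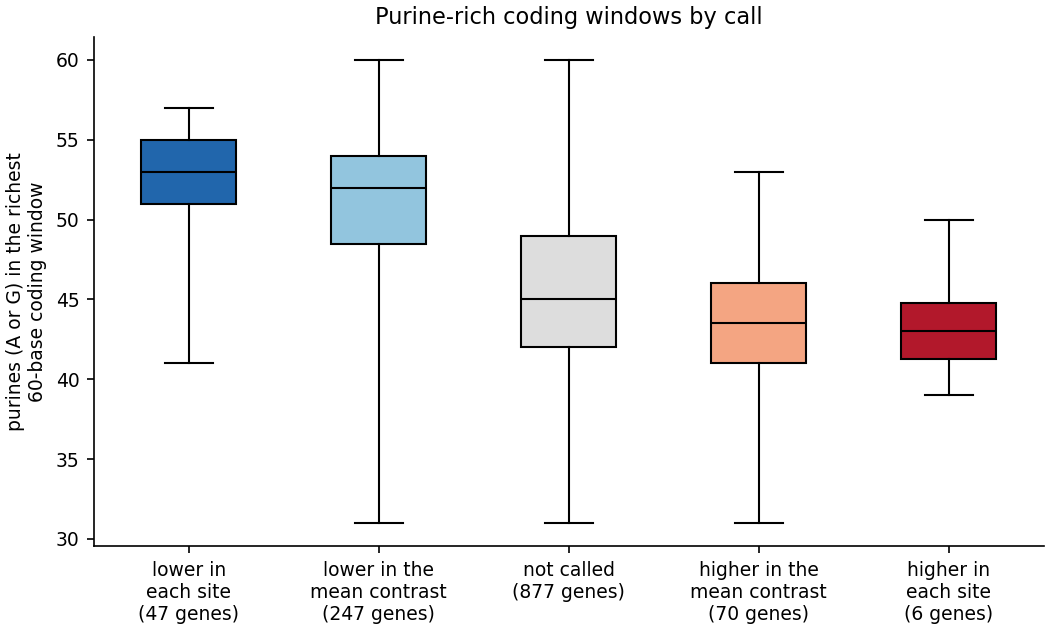
Boxes show the number of purines in the richest 60-base coding window of each protein-coding gene, by its call against iliac (line, median; box, quartiles; whiskers, lowest and highest gene). The genes lower in each node have a median of 53 and those higher in the mean contrast 43.5.

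Higher genes behaved differently in the deposited counts. The 14 genes higher in each node had a median log2 fold change of 2.22, and the 6 that met the naming rule lay between 1.89 and 2.27. Cx3cr1, the fractalkine receptor of monocytes and many tissue macrophages, had 202, 233 and 198 counts in duodenal, 251, 303 and 421 in liver, 176, 252 and 219 in celiac and 133, 291 and 246 in iliac. These counts overlapped between the groups, and only after scaling did they separate, into 933 ± 271 CPM (SD, n = 9) and 204 ± 30.8 (n = 3), a log2 fold change of 2.18 ± 0.44 (edgeR adjusted p = 0.00322). Grip2, a scaffold protein of synapses, had 103, 103 and 104 counts in duodenal, 99, 109 and 188 in liver, 165, 150 and 304 in celiac and 87, 146 and 138 in iliac (2.15 ± 0.41, adjusted p = 0.00225). Mettl3, the catalytic subunit that writes m6A on mRNA, had 103 to 333 counts in the upper-abdominal libraries and 91 to 171 in iliac (1.995 ± 0.39, adjusted p = 0.00235). Between the highest and the lowest of the 12 libraries, counts of these 3 genes differed by 3.17, 3.49 and 3.66 times, while library totals differed by 4.14 times. Sez6, a membrane protein of neurons (50 to 183 counts against 45 to 103), Cd300lg, a receptor of blood endothelium (11 to 27 against 6 to 21), and Trmt61b, named for a mitochondrial tRNA methyltransferase (26 to 84 against 26 to 67), were likewise close in counts. No coding window was found for Trmt61b in the annotation used here. Over all 37 libraries totals differed by 312 times. Counts there differed by 5.49 times for Sez6, 12.7 for Grip2, 49.1 for Trmt61b, 59.0 for Mettl3, 109 for Cx3cr1 and 222 for Cd300lg. Counts of Sez6 and Grip2 thus changed far less than depth did, and scaled values of such genes are higher in shallow libraries. Cx3cr1, Mettl3 and Trmt61b each overlap an annotated gene on the other strand, and the strand used in counting is not given in the sources used here.

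In all 134 higher genes the ratio of mean deposited counts, upper-abdominal to iliac, had a median of 1.11, and it was above 1 in 82. It ranged from 0.592 to 33.3 where iliac had counts, and Gm26461 had 839 counts over the upper-abdominal libraries and 0 in iliac. In the 276 lower genes that ratio had a median of 0.0469 and was at most 0.132, and over all tested genes the median was 0.342. The higher calls depended on scaling. With plain library totals in place of TMM, 4 genes were higher and 567 lower, and with DESeq2's size factors 93 were higher and 319 lower. With the 3 ribosomal features left out of the table, 70 were higher and 291 lower. Plain totals moved the median over all tested genes from 0.21 to -1.06 on the log2 scale; Cx3cr1 then had 0.91 (adjusted p = 0.223) and Grip2 0.84 (adjusted p = 0.21), and neither was called. All 276 lower genes were also called lower with plain totals, where Hmgb1 had -6.36 (adjusted p = 1.0e-06). Biotypes differed as well: 247 of the 274 annotated lower genes were protein-coding (90.1%), as were 70 of the 126 annotated higher genes (55.6%) and 1194 of the 1578 in all (75.7%), and 27 of the higher genes were pseudogenes.

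**Figure D4:**
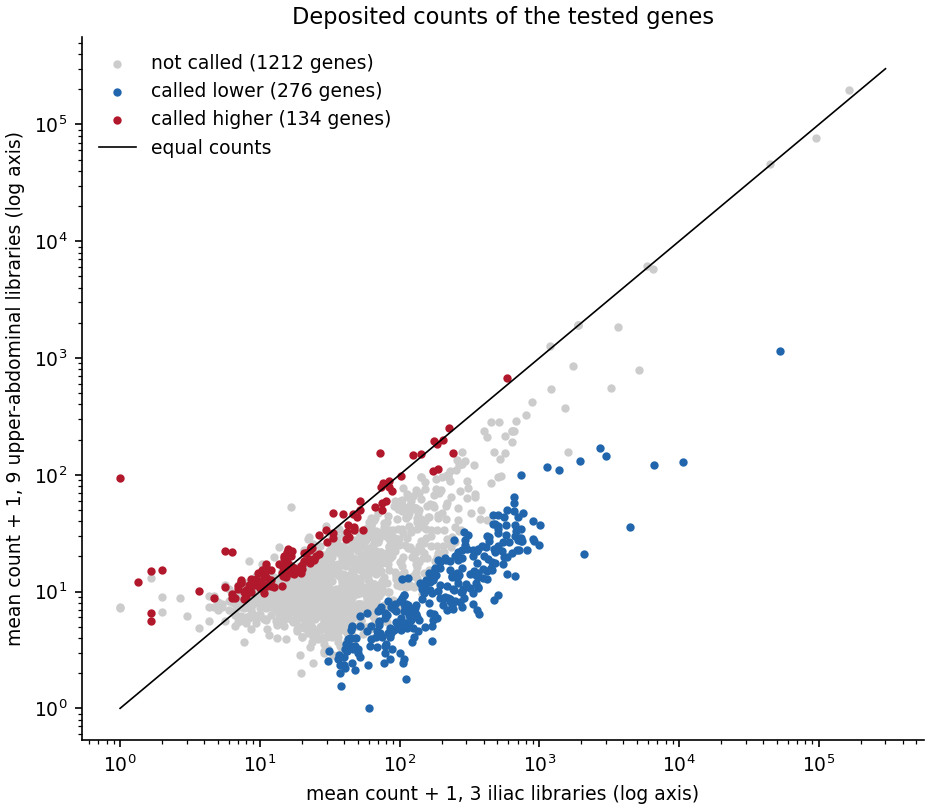
Each point is a tested gene, placed by its mean deposited count plus 1 in the 3 iliac libraries and in the 9 upper-abdominal libraries, both on log axes; colour gives its call after TMM scaling and the line marks equal counts. The 276 lower genes lie far under the line. The 134 higher genes have a median ratio of 1.11, and some of them lie far above the line.

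The isotype control, a single library of 5002926 counts without replicates, gave the background. It comes from another node and depth, so its values are set on plain library totals. Ribosomal features took 6.50% of its counts, against 74.3% to 85.6% in the upper-abdominal and 39.0% to 59.2% in the iliac libraries. On plain totals this alone sets other genes higher in the isotype control than in both groups, most of all against the upper-abdominal libraries. Hmgb1 stood at 1699 CPM in it, between 32.4 and 223 CPM in the upper-abdominal libraries and between 3545 and 12690 CPM in iliac. Hsp90aa1 stood at 5200 CPM in the isotype control, at 154 to 724 CPM in the upper-abdominal libraries and at 8966 to 32717 CPM in iliac. Grip2 was at 41.9 CPM in the isotype control, under the 227 to 558 CPM of the upper-abdominal and the 157 to 251 CPM of the iliac libraries. For 51 of the 52 genes lower in each node the isotype control was above all 9 upper-abdominal libraries, as it was for 254 of all 276 lower genes (92.03%), 775 of the 1622 tested (47.8%) and 5 of the 134 higher genes (3.73%). The classes were called from the same upper-abdominal and iliac values, so a rank against either group is in part set by that choice. Against iliac, the isotype control was above the 3 libraries for 27 of the 52, within their range for 16 and below for 9. These counts were 158, 81 and 37 for the 276 lower genes, 741, 559 and 322 for all tested, and 29, 42 and 63 for the higher. Hmgb1 and Hsp90aa1 were below, while Crebbp was above, at 2231 CPM against 168 to 749 CPM in iliac. The median level over the 276 lower genes was 508 CPM in the isotype control, 23.2 CPM in the upper-abdominal and 292 CPM in the iliac libraries, and over the 134 higher genes it was 17.4, 46.7 and 26.9 CPM. No value or rank given here for the isotype control was adjusted for its ribosomal share of 6.50%. The part of RNA recovered without a tagged ribosome in these differences was not tested.

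Malat1, a long noncoding RNA that stays in the nucleus and was named here after its values were seen, had 231, 649 and 395 counts in duodenal, 2297, 1118 and 2739 in liver, 336, 320 and 2187 in celiac and 20051, 54076 and 82950 in iliac. The groups did not overlap, with a log2 fold change of -3.76 ± 0.59 (adjusted p = 0.000578), though liver alone was not called (-2.67 ± 0.84, adjusted p = 0.073). On the same plain totals, Malat1 made up 266090 CPM in the isotype control, against 599 to 9781 CPM in the upper-abdominal and 57650 to 93991 CPM in the iliac libraries. The other 4 tested members of the nuclear noncoding RNA list were not called: Neat1 was at 2.003 ± 1.19, Kcnq1ot1 at 0.95 ± 0.52, Snhg14 at 0.29 ± 0.69 and Snhg11 at 0.27 ± 0.43, and the median of the 5 was 0.29.

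**Figure D5:**
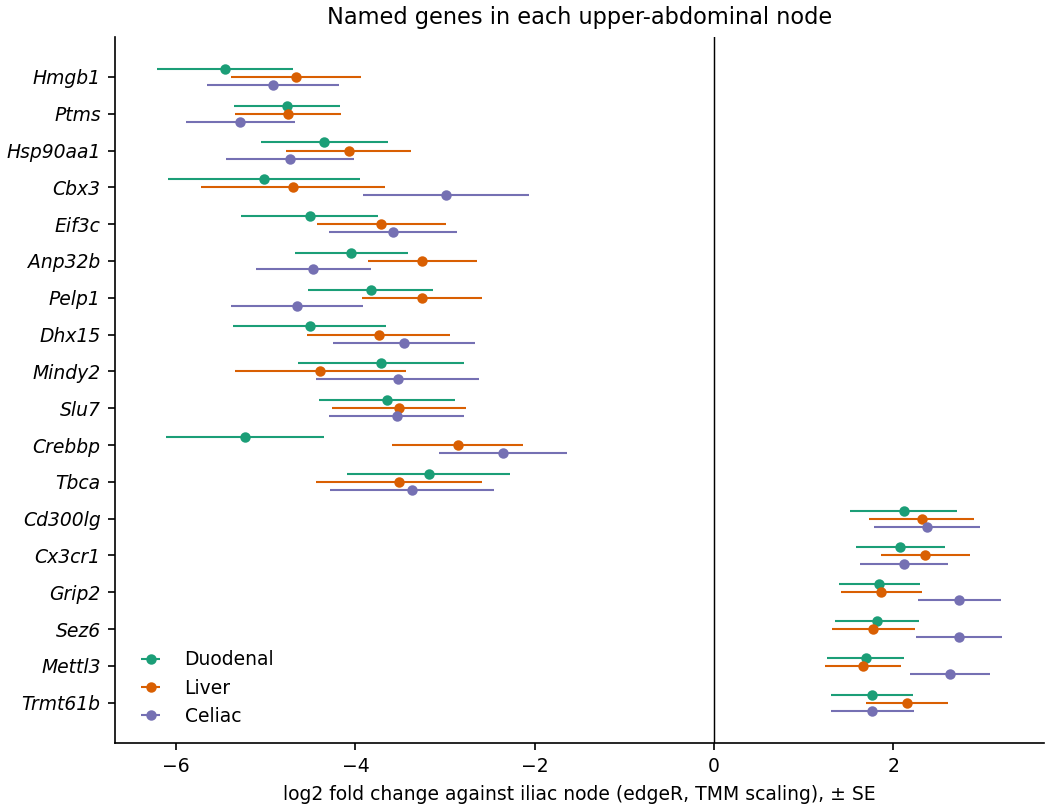
Points give the log2 fold change against the iliac node in the duodenal, liver and celiac nodes for the 18 named genes, with bars of 1 SE, from edgeR with TMM scaling. The 12 lower genes lie between -2.35 and -5.45 in every node, and the 6 higher genes lie between 1.66 and 2.74.

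The other genes were read from 36 lists of cell types and pathways, chosen with earlier results of these data known. Of their 623 genes, 119 had enough counts to test. In the heat shock and chaperone list 3 of the 4 tested genes were lower (median -2.37), against 17% of all tested genes: Hsp90aa1, Hsp90ab1, the constitutive cytosolic form (-2.54 ± 0.39, adjusted p = 0.000487), and Hsp90b1, its endoplasmic reticulum relative (-2.21 ± 0.48, adjusted p = 0.0051). Hspa8, the constitutive Hsp70, was the member not called (0.77 ± 0.52). Without iliac replicate 2, Hsp90b1 was at -0.87 (adjusted p = 0.21) and was no longer called. Among cytosolic ribosomal proteins 8 of 31 tested were lower, against 17% of all tested genes, and 1, Rps3, was higher, with a median of -0.94. Without iliac replicate 2 the 8 fell to 1, none was higher, and the median was -0.27. Rplp1, of the ribosomal stalk, had 10 to 105 counts against 99 to 2314 (-2.75 ± 0.55, adjusted p = 0.00299; -1.40 without iliac replicate 2, adjusted p = 0.106), and none of the 31 was called in each of the 3 nodes. Rps3 had a mean of 10.1 counts against 10.3 (1.69 ± 0.55, adjusted p = 0.0376) and was not called with plain totals, where 19 of the 31 were lower. Processed copies of ribosomal protein genes make these counts uncertain.

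Of 5 tested B cell genes 2 were lower, against 17% of all tested genes: Bank1, a signalling adaptor (7 to 134 counts against 232 to 1240, -2.31 ± 0.40, adjusted p = 0.00109), and Ms4a1, which encodes CD20 (1 to 12 against 21 to 130, -2.44 ± 0.60, adjusted p = 0.00985). Ms4a1 was called in none of the 3 nodes alone, and not in the mean contrast without iliac replicate 2 (-1.91, adjusted p = 0.134). Not called were Pax5, the B cell identity factor (-1.26 ± 0.63), Cd37, a tetraspanin (-1.97 ± 0.85), and Ebf1, an early B cell transcription factor (0.31 ± 0.52). The 6 B cell markers summed to 2 to 69 counts in an upper-abdominal library and 40 to 151 in an iliac one. On plain library totals Bank1 stood at 3426 CPM in the isotype control, against 668 to 1406 CPM in iliac. Pax5 (2247 against 76.5 to 364), Cd37 (341 against 25.4 to 137) and Ebf1 (194 against 42.0 to 52.2) were also above iliac there. Ms4a1 was within the iliac range (174 against 59.7 to 207). These isotype values, and those below, are on plain totals, where the low ribosomal share of that library raises other genes. Of 6 tested adipocyte genes Lpl was lower, and Lipe, the hormone-sensitive lipase, was higher after scaling (1.74 ± 0.43, adjusted p = 0.0099) with 29 to 79 counts against 31 to 74, and not with plain totals (0.42, adjusted p = 0.602). Calr and Canx, chaperones that help load MHC class I, were the 2 lower of 6 tested genes of that pathway, against 17% of all tested genes (-1.95 ± 0.42 and -2.29 ± 0.43), and B2m, the class I light chain, was not called (-0.33 ± 0.88). In the isotype control Calr stood at 1378 CPM, against 469 to 1146 CPM in iliac, and Canx at 880 CPM, against 464 to 1535 CPM. None of the 4 tested MHC class II genes was called, with Cd74, the invariant chain, at 0.48 ± 0.58. Hba-a2, an alpha-globin gene with a near-identical copy, was lower in each node, with 4 to 30 counts against 125 to 771 (-2.85 ± 0.49, adjusted p = 0.00109). The other erythroid gene tested, Hbb-bs, a beta-globin, was not called (0.68 ± 0.73, adjusted p = 0.524), with 1 to 15 counts against 12 to 25. The 5 erythroid markers summed to 13 to 45 counts against 176 to 919, of which Hba-a2 itself made up most in iliac. Hoxc8, a positional factor of the trunk, had 0 to 7 counts against 19 to 76 (-2.87 ± 0.77, adjusted p = 0.016), and was called in duodenal alone among the nodes, and not in the mean contrast without iliac replicate 2 (-2.61, adjusted p = 0.0937). Hoxc8 stood at 67.4 CPM in the isotype control, within the 53.6 to 121 CPM of iliac. Of the 43 Hox and positional genes listed 2 were tested, and the other, Hoxb4, was not called (0.23 ± 0.68, adjusted p = 0.825). No tested gene was found in 10 of the 36 lists, among them those of T cells, plasma cells, acinar pancreas and hepatocytes. How far other cell types contributed to the B cell, adipocyte and erythroid values was not tested.

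Within the upper-abdominal group, duodenal replicate 3 and liver replicate 2 stood apart on the second principal component, which held 16.7% of the variance, while the first, with 32.0%, separated iliac. Rbm25, a splicing regulator named here after its values were seen, had 2812 and 2160 counts in those libraries, 118 to 702 in the other 7 and 2148 to 7682 in iliac. Its log2 fold change was -1.18 ± 0.58 (adjusted p = 0.149), and -1.91 (adjusted p = 0.00195) without them. Leaving out both libraries, a choice made after seeing the data, gave 440 genes in the mean contrast and 39 in each of the 3 nodes.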

How the data were processed

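Estimated counts per gene were deposited by the authors for 37 libraries, with no scaling stated. The submitters' processing notes name kallisto, edgeR and limma and the builds GRCm39 and mm10, with no role or version, so the build behind the counts is ambiguous. Of the non-zero values in the 12 libraries, 98.8% lay more than 0.001 away from any whole number; counts were rounded for testing. Genes were filtered with filterByExpr (10 counts, total of 15), scaled by TMM, and tested with edgeR 4.0.16 in R 4.3.3 by quasi-likelihood, 1 mean per node, with Benjamini-Hochberg adjustment over 1622 genes. The script was tested on simulated data. Standard errors are the log2 fold change divided by the square root of F. The CPM given for 3 counts covers counting error alone, as PCR duplicates are not separate molecules. Rows without a symbol held at most 0.056% of counts. No pair of replicates agreed within sampling noise (chi-square per degree of freedom 17.9 to 93.3). Named genes were the fixed macrophage markers, up to 12 per direction with the largest change among those called in the mean and in each node, and the list members with the smallest p. Lower genes needed 10 counts in each iliac library, and higher genes needed 10 counts in 6 of the 9 others. Predicted genes, pseudogenes, receptor segments and ribosomal features were not named. The members and lists were chosen with earlier results of these data known. DESeq2 1.42.0 and limma 3.58.1 served as alternatives.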

Additional observations from a re-analysis of the deposited data

How the results depend on the processing

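The mean contrast stayed within 1.5 times its 410 genes with DESeq2's size factors, plain totals, the ribosomal features left out, a stricter filter, DESeq2, limma voom and the replicate block, and the 52 lower and 14 higher genes kept their sign in every setting that tested them. Those genes were chosen from the same libraries for large changes, so the kept signs are no separate support. With plain library totals 347 genes were called in duodenal, 285 in liver, 522 in celiac and 244 in each of the 3 nodes. With no filter the counts were 759 in the mean contrast, 311 in duodenal, 191 in liver, 38 among the nodes and 138 in each. DESeq2 gave 330 in duodenal, 235 in liver, 12 among the nodes and 164 in each, and limma voom gave 163 in liver and 110 in each, with 255 higher and 301 lower in the mean contrast. With all 36 pull-down libraries in the fit the counts were 2372, 1134, 714 and 887 for the mean, duodenal, liver and celiac, 160 among the nodes and 360 in each. With the replicate block, liver had 35 genes and the 3 nodes together 29. Whether replicate numbers pair the libraries could not be decided, as same-numbered and other pairs overlapped in correlation. The correlation of same-numbered libraries lay between -0.33 and 0.23 (median 0.045) and was over 0.1 in 5 of 18 pairs. Differently numbered pairs lay between -0.31 and 0.39 (median -0.024) and were over 0.1 in 6 of 36. Of the 12 libraries, 4 correlated best with their own number. Leaving out 1 library, over the same 1622 genes, gave 171 to 443 genes in the mean contrast, 31 to 287 in duodenal, 1 to 144 in liver, 116 to 338 in celiac, 0 among the nodes and 1 to 118 in each. Without duodenal replicate 3 and liver replicate 2 together, chosen after seeing the data, liver had 45 genes and the 3 nodes together 39. Of the 14 higher genes, 9 were still higher in each node with DESeq2's size factors, 6 without the ribosomal features, 2 with plain totals and 1 with all 36 libraries; of the 52 lower genes, all 52 were with DESeq2's size factors, plain totals and all 36 libraries, and 51 of 51 tested without the ribosomal features. The cause of these changes was not tested. Depth limits the genes that could be tested, since at most 2075 genes reached 10 counts in an upper-abdominal library.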
